A study of Mus musculus with 24 samples.

Results

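The antiviral interferon-stimulated genes are a group of 50 genes whose products restrict viruses or amplify the interferon response. Members were the rows of the deposited count table whose Ensembl identifier maps to one of 50 listed mouse symbols in GENCODE M21. All 50 were found among the 22165 genes of the table, and all 50 were among the 11878 genes that passed the filter on low counts. The measurements are from bulk RNA-seq of bone marrow-derived macrophages (BMDMs), grown for 7 days in M-CSF (20 ng/mL) from the marrow of C57BL/6N mice aged 8 to 20 weeks. BMDMs came from WT mice or from *Irg1*-/- mice, which lack the enzyme that makes itaconate (its gene is now named *Acod1*). Cells of each genotype were left unstimulated (Unstim.), given 100 ng/ml LPS for 3 h after a mock first treatment (LPS 3h, non-tolerized), given LPS for 24 h (LPS 24h), or given LPS for 24 h, fresh medium for 1 h and LPS again for 3 h (LPS 24h->LPS 3h, tolerized). LPS is a bacterial cell wall component sensed by TLR4. Each of the 8 groups held 3 cultures, so 24 libraries entered the comparisons, and p-values measure the spread between these cultures. WT mice were purchased and no littermate pairing with the *Irg1*-/- mice is stated in the sources used here, so the deletion and the stock of mice cannot be told apart.

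As background, TLR4 signals through the adaptor TRIF to the factor IRF3, which induces interferon beta. Secreted interferon binds its receptor IFNAR on the same and on neighbouring cells, and a complex that holds STAT2 and IRF9 then enters the nucleus and binds interferon-stimulated response elements (ISREs) in promoters. IRF7, itself a product of the pathway, amplifies it. The resulting proteins recognise foreign RNA (RIG-I, MDA5), degrade it (the OAS proteins through RNase L), block its translation (IFIT proteins, PKR) or deplete nucleotides and modify them (SAMHD1, viperin). Macrophages exposed to LPS for a long time respond less to a second dose, which is called tolerance, and the question the groups address for these genes is whether loss of *Irg1* changes their level before LPS, at its first dose, after 24 h and on restimulation.

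The libraries held 3927378 to 20430359 gene reads each, with a median of 11539056. *Acod1* was between 1.58 and 26.4 normalized CPM (read counts per library total, scaled for composition by TMM) in all *Irg1*-/- libraries, and after LPS 3h it had 22837, 28063 and 15643 in the 3 WT libraries against 26.4, 7.94 and 1.58 in *Irg1*-/-. It was at 5.82 to 10.1 in unstimulated WT and at 7.79 to 11.9 in unstimulated *Irg1*-/- libraries, so it does not check the genotype labels of those 6 libraries. All 7 macrophage markers were detected in every group, and their summed level ranged from 3242 to 7899 normalized CPM in WT and from 4990 to 9690 in *Irg1*-/- libraries. Of the markers of other cells, those of T and NK cells, B cells, dendritic cells and mast cells summed to at most 2.99 normalized CPM in any library. Neutrophil markers summed to 32.7 to 64.5 before LPS and after LPS 3h, and to at most 3.38 in the other groups. Fibroblast markers (*Col1a1*, *Col1a2*, *Dcn*, *Pdgfra*) summed to 94.4 to 414, with overlapping ranges of the 2 genotypes in every treatment. Of 5 plasmacytoid dendritic cell markers, *Tcf4*, which is also expressed elsewhere, made up nearly all of the sum and *Klk1* had no read in any library. A prefix in the labels takes 4 values and was taken to mark the pool a library was made in. Pool 4 held all 6 unstimulated libraries, while the LPS-treated WT cultures were in pools 1, 2 and 4 and the LPS-treated *Irg1*-/- cultures in pools 1, 2 and 3, so values within a pool are given beside the genotype comparisons. In bulk RNA, fewer cells expressing a gene and less RNA per cell cannot be told apart.

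The members lie on 16 chromosomes, and 26 of them sit in 10 clusters in which neighbouring members are at most 500000 bases apart. Among these are *Rsad2* and *Cmpk2*, whose annotated ends on chromosome 12 are 12751 bases apart, the 3 *Ifit* genes on chromosome 19, 4 *Oas* genes on chromosome 5 and *Trim30a*, *Trim30c* and *Trim30d* on chromosome 7. RefSeq promoters (GRCm38.p6, 250 bases before to 50 after a start) were matched for 39 members by symbol. The core of an ISRE, searched as GAAANNGAAA on both strands with overlaps allowed, was found in a promoter of 19 of these 39 (48.7%) and of 1079 of all 27025 genes with a promoter (3.99%). It was found in all 4 matched nucleic acid sensors, in 5 of 8 members of the TRIM30, SLFN and PHF11 families, and in none of the 3 PARP and nuclear body genes or the 5 matched other induced genes. The promoters of the 5 members that fell in *Irg1*-/- cells are printed from 5′ to 3′ on the strand of the gene, because the genotype comparisons turn on them, with matches in capitals.
Rsad2 (chr12:26456403-26456702, - strand): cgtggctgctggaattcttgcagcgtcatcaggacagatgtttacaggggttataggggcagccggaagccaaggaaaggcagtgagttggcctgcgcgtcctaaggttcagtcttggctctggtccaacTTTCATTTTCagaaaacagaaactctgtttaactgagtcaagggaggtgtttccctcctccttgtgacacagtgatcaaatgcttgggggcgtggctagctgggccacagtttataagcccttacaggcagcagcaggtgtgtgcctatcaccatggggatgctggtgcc
Cmpk2 (chr12:26468965-26469264, + strand): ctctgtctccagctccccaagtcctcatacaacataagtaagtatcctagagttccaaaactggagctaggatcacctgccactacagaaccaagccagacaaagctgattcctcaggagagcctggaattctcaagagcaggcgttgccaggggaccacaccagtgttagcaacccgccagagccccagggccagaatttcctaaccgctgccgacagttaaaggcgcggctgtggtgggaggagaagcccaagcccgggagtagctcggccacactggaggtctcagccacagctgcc
Isg15 (chr4:156200769-156201068, - strand): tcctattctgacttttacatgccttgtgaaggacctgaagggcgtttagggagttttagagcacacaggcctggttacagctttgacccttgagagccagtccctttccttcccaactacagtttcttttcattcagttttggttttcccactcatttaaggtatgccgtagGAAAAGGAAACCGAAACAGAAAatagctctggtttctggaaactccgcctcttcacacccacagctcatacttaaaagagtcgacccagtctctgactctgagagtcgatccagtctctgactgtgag
Oasl1 (chr5:114922990-114923289, + strand): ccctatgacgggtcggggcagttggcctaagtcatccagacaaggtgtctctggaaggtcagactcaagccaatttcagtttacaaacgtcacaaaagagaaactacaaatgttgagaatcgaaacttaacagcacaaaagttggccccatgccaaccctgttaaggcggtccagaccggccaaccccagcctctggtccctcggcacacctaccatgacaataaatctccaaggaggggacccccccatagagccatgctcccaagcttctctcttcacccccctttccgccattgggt
Trim30c (chr7:104400729-104401028, - strand): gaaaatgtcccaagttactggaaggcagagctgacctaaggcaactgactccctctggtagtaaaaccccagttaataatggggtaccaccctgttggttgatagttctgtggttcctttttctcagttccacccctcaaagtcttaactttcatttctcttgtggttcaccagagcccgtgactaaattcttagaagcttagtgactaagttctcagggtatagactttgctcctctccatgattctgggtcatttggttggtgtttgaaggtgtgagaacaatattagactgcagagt

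In *Isg15*, 3 overlapping matches began 78, 72 and 66 bases before the start, and *Rsad2* held 1 match on the other strand, whose leftmost base is 120 bases before the start. No match was found in the windows of *Cmpk2*, *Oasl1* and *Trim30c*. A match is a description of letters only, and the absence of one says nothing of sites outside these windows.

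Together the members took up a small share of unstimulated libraries and a large one after the first LPS. In unstimulated WT cells they held 0.285, 0.2824 and 0.2392% of the reads on genes in the 3 libraries, and in unstimulated *Irg1*-/- cells 0.3501, 0.3498 and 0.4083%. After LPS 3h the shares rose to 8.023, 8.522 and 8.505% in WT and 9.186, 8.043 and 9.422% in *Irg1*-/-. These ranges overlapped. After LPS 24h the members held 2.25, 3.002 and 3.183% in WT and 2.087, 1.592 and 2.094% in *Irg1*-/-, and in tolerized cells 2.135, 1.812 and 3.161% and 1.274, 1.299 and 1.483%. Thus every *Irg1*-/- library lay above every WT library before LPS, and every *Irg1*-/- library lay below every WT library after LPS 24h and in tolerized cells. After LPS 24h the 3 *Irg1*-/- libraries shared a pool with only 1 WT library, the one at 2.25%, and the higher WT shares came from pools without *Irg1*-/- libraries. Within pool 1, the tolerized *Irg1*-/- libraries had 1.299% and 1.483% against 2.135% in the WT library, and within pool 2, 1.274% against 1.812%. The single gene *Rsad2* made up 34.5% to 46.6% of the members' reads after LPS 3h in WT and 37.0% to 39.1% in *Irg1*-/-. After LPS 24h it made up 19.2% to 30.9% in WT and 10.9% to 13.5% in *Irg1*-/-, and in tolerized cells 23.6% to 37.3% and 16.4% to 18.8%. The shares of the whole group thus weigh it heavily, and the medians over members given below do not. The separation of the shares after LPS 24h therefore need not hold for the other members.

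**Figure D1:**
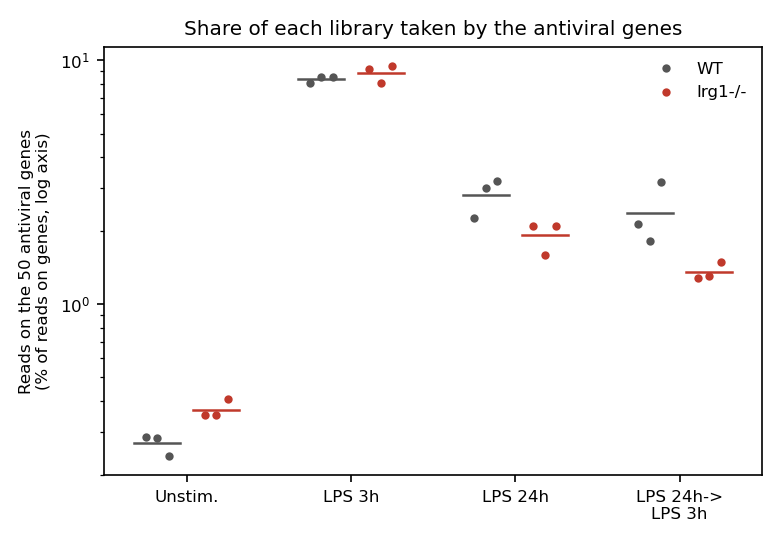
Percent of each library's reads on genes that fell on the 50 antiviral genes (log axis), for the 4 treatments; points are single libraries and bars are group means, grey for WT and red for Irg1-/-. The Irg1-/- libraries sit above WT in Unstim. (0.35 to 0.408% against 0.239 to 0.285%) and below WT in LPS 24h->LPS 3h (1.27 to 1.48% against 1.81 to 3.16%).

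The response to the first LPS was large in both genotypes. In WT cells 50 of 50 members rose after LPS 3h (15.8% of all genes tested rose), with a median log2 fold change of 4.62 against −0.18 over all genes. In *Irg1*-/- cells 49 rose (background 17.0%), with a median of 4.22. The highest log2 fold changes were those of *Ifi205*, an AIM2-like receptor gene, at 10.13 (SE 0.60, adjusted p = 1.37e-14) in WT and 10.11 (SE 0.60, adjusted p = 2.42e-14) in *Irg1*-/-. *Rsad2*, which encodes the antiviral enzyme viperin, rose by 9.65 (SE 0.49, adjusted p = 8.02e-16) in WT and 8.51 (SE 0.47, adjusted p = 5.22e-15) in *Irg1*-/-. *Bst2*, the gene of the virion tether tetherin, had one of the smallest increases, 1.97 (SE 0.35, adjusted p = 3.54e-05) and 2.23 (SE 0.35, adjusted p = 8.42e-06). After LPS 24h, 49 members were above the unstimulated level in each genotype (background 9.25% in WT and 7.31% in *Irg1*-/-), with medians of 3.80 in WT and 2.89 in *Irg1*-/-. Without a composition factor the median over all genes shifts by −0.93 in WT and −0.92 in *Irg1*-/- for LPS 3h and by −0.29 and −0.19 for LPS 24h, and the members' LPS 3h medians become 3.70 and 3.31. Adjusted p-values, here and later unless another test is named, come from the quasi-likelihood F-test of edgeR, adjusted by the Benjamini-Hochberg method over all genes tested.

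*Irf9*, the DNA-binding subunit of that complex, was the member that did not pass. Its normalized CPM were 58.04, 39.9 and 60.3 in unstimulated WT and 185, 177 and 158 after LPS 3h, where it rose by 1.71 (SE 0.47, adjusted p = 0.0054). In *Irg1*-/- cells they were 41.9, 35.6 and 220.3 before and 239.9, 149 and 144 after LPS 3h, a log2 difference of 0.83 (SE 0.46, adjusted p = 0.164). One unstimulated *Irg1*-/- culture thus had a level as high as the LPS-treated ones. Without it the log2 difference was 2.24, and 50 of 50 members were called. After LPS 24h the log2 differences from unstimulated cells were 0.79 (SE 0.46, adjusted p = 0.28) in WT and 0.33 (SE 0.46, adjusted p = 0.724) in *Irg1*-/-, with 85.95, 101 and 87.3 in WT and 230.3, 73.7 and 72.2 in *Irg1*-/- normalized CPM.

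The other transcription factors of the group followed different courses. *Irf7*, the amplifier of the pathway, had 15.5, 5.06 and 10.4 normalized CPM in unstimulated WT and 16.99, 21.1 and 14.9 in unstimulated *Irg1*-/- libraries. It reached 338, 618 and 229 in WT and 238, 256 and 432 in *Irg1*-/- after LPS 3h, and 979, 676 and 471 in WT and 689, 577 and 408 in *Irg1*-/- after LPS 24h, its highest mean in both genotypes. In tolerized cells it remained at 604, 824 and 494 in WT and 547, 529.6 and 343 in *Irg1*-/-, and the genotypes overlapped in each of the LPS treatments. *Stat2*, the signal transducer of the complex, had 1275, 1021 and 1190 in WT and 1176, 998 and 922 in *Irg1*-/- after LPS 3h. After LPS 24h it had 719, 1002 and 2253 in WT, where 1 culture stood above the others, and 594, 505 and 886 in *Irg1*-/-, and in tolerized cells 445, 452 and 343 in WT and 165, 354 and 473 in *Irg1*-/-, which overlapped.

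Before LPS, the members tended to be higher in *Irg1*-/- cells, but none passed the threshold. Of 50 members, 43 had a positive log2 difference, against 50.8% of all genes, and the median was 0.52 against 0.01 over all genes. Leaving out 1 culture at a time, the median ran from 0.293 without unstimulated *Irg1*-/- replicate 3 to 0.622 without unstimulated WT replicate 1. In 14 members all 3 *Irg1*-/- libraries lay above all 3 WT libraries (4.34% of all genes), and in none did all 3 lie below. With edgeR 0 members were called (0.0421% of all genes were), and DESeq2's Wald test called 3. With edgeR 14 members had an unadjusted p under 0.05, all of them higher in *Irg1*-/-, against 5.2% of all genes in either direction. *Rsad2* had 62.7, 64.2 and 64.2 normalized CPM in WT and 121, 152 and 130 in *Irg1*-/-, and the log2 difference was 1.08 (SE 0.34, adjusted p = 0.463). *Isg20*, an RNA exonuclease gene, had 2.58, 3.06 and 1.41 in WT and 14.2, 5.47 and 3.69 in *Irg1*-/-, a difference of 1.72 (SE 0.41, adjusted p = 0.191). For *Mx2*, an interferon-induced GTPase gene that the annotation lists as a polymorphic pseudogene, the values were 0.837, 0.668 and 2.00 in WT and 4.21, 5.47 and 2.89 in *Irg1*-/-, and the difference was 1.72 (SE 0.42, adjusted p = 0.239). The *Mx2* values came from few reads, 13, 7 and 41 in WT and 27, 29 and 54 in *Irg1*-/-. In each of these 3 genes the lowest *Irg1*-/- library was above the highest WT library. *Oasl2*, an OAS-like gene, had 23.1, 19.4 and 23.1 in WT and 55.8, 48.6 and 35.1 in *Irg1*-/-, a difference of 1.08 (SE 0.26, adjusted p = 0.191), and *Oas2* had 4.96, 9.93 and 8.29 in WT and 18.4, 18.7 and 16.2 in *Irg1*-/-, a difference of 1.199 (SE 0.36, adjusted p = 0.397). Some members went the other way or did not separate. *Ms4a4c*, a membrane protein gene of monocytes, had 1.80, 0.0955 and 1.51 in WT and 1.87, 0.754 and 0 in *Irg1*-/-, and *Bst2* had 8.12, 7.35 and 6.44 in WT and 4.36, 9.43 and 6.91 in *Irg1*-/-. All 6 of these libraries were in pool 4, so the comparison lies within 1 pool.

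After LPS 3h no member passed the threshold between genotypes. The median log2 difference over the members was 0.13 (−0.02 over all genes), and 38 of 50 were positive (47.3% of all genes). By edgeR (0.00842% of all genes) and by DESeq2's Wald test 0 were called. With edgeR 2 members had an unadjusted p under 0.05, against 5.84% of all genes. *Phf11b*, of the interferon-induced PHF11 family, was the 1 member whose *Irg1*-/- libraries all lay above the WT libraries (background 4.03%), with 78.6, 81.9 and 96.04 normalized CPM in WT and 243, 135 and 143 in *Irg1*-/- and a log2 difference of 1.02 (SE 0.36, adjusted p = 0.578). Its neighbour *Phf11d* had 89.1, 234 and 103 in WT and 1308, 627 and 145 in *Irg1*-/-, a difference of 2.29 (SE 0.78, adjusted p = 0.562) with overlapping libraries. These 2 genes are similar in sequence and could share reads, so their separate values are uncertain. *Ifit1* had 9103, 21218 and 7635 in WT and 10382, 12357 and 23787 in *Irg1*-/-, and *Ifih1*, the gene of the RNA sensor MDA5, 1748, 4987 and 1858 in WT and 7635, 2295 and 4008 in *Irg1*-/-. Both varied widely among cultures of one genotype, and the genotypes overlapped. Within pool 2, the 1 pool with both genotypes, 35 of 50 members were higher in *Irg1*-/-.

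After LPS 24h the members were mostly lower in *Irg1*-/- cells. The log2 difference was negative in 39 of 50 (50.7% of all genes) with a median of −0.27, 9 members had all *Irg1*-/- libraries below all WT libraries (8.99% of all genes), and 3 members fell past the threshold (0.497% of all genes): *Isg15*, *Rsad2* and *Cmpk2*. *Isg15* encodes a ubiquitin-like modifier. It had 141, 128 and 166 normalized CPM in WT and 53.9, 59.2 and 36.4 in *Irg1*-/-, with no overlap, and fell by 1.54 (SE 0.30, adjusted p = 0.0116) on the log2 scale. *Rsad2* had 3867, 7046 and 9752 in WT and 2415, 1491 and 2108 in *Irg1*-/-, and its log2 difference was −1.78 (SE 0.35, adjusted p = 0.0116). *Cmpk2*, a mitochondrial nucleotide kinase gene next to *Rsad2*, had 337, 587 and 359 in WT and 193, 88.1 and 183 in *Irg1*-/-, a difference of −1.47 (SE 0.34, adjusted p = 0.0371). The ranges of the genotypes did not meet in any of the 3 genes. All 3 *Irg1*-/- libraries were in pool 1, with 1 WT library, and within it 34 of 50 members were lower in *Irg1*-/-. Against that WT library, the log2 differences (pseudocount 1) were −1.51 for *Isg15*, −0.98 for *Rsad2* and −1.201 for *Cmpk2*. With the pool as a term in the fit, 0 of the 3 stayed past the threshold (adjusted p 0.0607, 0.0674 and 0.136). Without *Irg1*-/- LPS 24h replicate 3 or without WT LPS 24h replicate 3, 0 members were called, and 1 without *Irg1*-/- LPS 24h replicate 2. When the fit held no other groups 0 were called (3 of all genes). Of 14 alternatives, the call was lost in 5 for *Isg15*, 6 for *Rsad2* and 9 for *Cmpk2*.

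In tolerized cells nearly all members were lower in *Irg1*-/-, and a few passed the threshold. The log2 difference was negative in 47 of 50 members (52.1% of all genes) with a median of −0.56 (−0.03 over all genes). In 20 members all *Irg1*-/- libraries lay below all WT libraries, against 6.42% of all genes. Past the threshold, 4 members fell (0.0926% of all genes), namely *Oasl1*, *Trim30c*, *Rsad2* and *Cmpk2*, and none rose. *Oasl1*, an OAS-like gene whose protein restrains translation of IRF7, had 275, 291 and 222 normalized CPM in WT and 59.7, 66.6 and 51.9 in *Irg1*-/-, and its log2 difference was −2.15 (SE 0.34, adjusted p = 0.00186). *Trim30c*, of the TRIM30 family of interferon-induced ring-finger proteins, had 100.1, 134 and 294 in WT and 35.7, 44.96 and 47.4 in *Irg1*-/-, a difference of −2.04 (SE 0.31, adjusted p = 0.00113). In both genes the lowest WT library stood above the highest *Irg1*-/- library. *Rsad2* had 5198, 4411 and 13132 in WT and 1997, 2437 and 2624 in *Irg1*-/-, a difference of −1.69 (SE 0.35, adjusted p = 0.0373), and *Cmpk2* had 374, 373 and 622 in WT and 105, 158 and 167 in *Irg1*-/-, a difference of −1.67 (SE 0.35, adjusted p = 0.0373). WT culture 3, the only tolerized library in pool 4, had the highest level of *Rsad2*, *Cmpk2* and *Trim30c*. Without it the log2 difference of *Rsad2* was −0.99 (adjusted p = 0.361) and that of *Trim30c* −1.42 (adjusted p = 0.0465). Within pools 1 and 2, 45 and 39 of 50 members were lower in *Irg1*-/-, and the log2 differences were −2.21 and −2.27 for *Oasl1*, −1.10 and −1.88 for *Trim30c*, −1.04 and −1.14 for *Rsad2*, and −1.197 and −1.82 for *Cmpk2*. With the pool as a term, *Oasl1* and *Trim30c* stayed past the threshold and *Rsad2* and *Cmpk2* did not (adjusted p 0.0987 and 0.0756). Of 14 alternatives, the call was lost in 0 for *Oasl1*, 1 for *Trim30c*, 7 for *Rsad2* and 9 for *Cmpk2*. Sums of markers listed for other cells differed in the same comparison, without overlap and higher in *Irg1*-/-. Neutrophil markers summed to 1.05 to 2.075 normalized CPM in tolerized WT and 2.202 to 3.336 in tolerized *Irg1*-/-. Plasmacytoid dendritic cell markers, nearly all *Tcf4*, summed to 240.5 to 262 and 268 to 343, with reads on 3 and 2 of the 5 markers. Their part in the result was not tested. Without WT culture 3, or without any 1 of the *Irg1*-/- cultures, 2 members were called. When the fit held no other groups 1 was (4 of all genes).

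The 5 genes that fell in these comparisons did not separate in this direction at the first dose. After LPS 3h, *Rsad2* had 52155, 42781 and 58312 normalized CPM in WT and 51522, 40848 and 54626 in *Irg1*-/-. *Cmpk2* had 4651, 5927 and 5622 in WT and 9054, 3596 and 4096 in *Irg1*-/-, and *Isg15* 184, 250.5 and 154 and 168, 199 and 133. *Oasl1* had 697, 553 and 547 in WT and 772, 477 and 479.8 in *Irg1*-/-. In none of these 4 genes were all *Irg1*-/- libraries below all WT libraries. Before LPS, *Cmpk2* had 13.7, 16.4 and 11.9 in WT and 20.9, 17.1 and 17.4 in *Irg1*-/-, with *Irg1*-/- above WT, and *Oasl1* had 1.61, 0.286 and 0.683 in WT and 0.623, 1.32 and 1.07 in *Irg1*-/-, which overlapped. *Trim30c* after LPS 24h had 112, 162 and 162 in WT and 85.3, 64.4 and 78.03 in *Irg1*-/-, without overlap and short of the threshold, with a log2 difference of −0.94 (SE 0.30, adjusted p = 0.183).

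**Figure D2:**
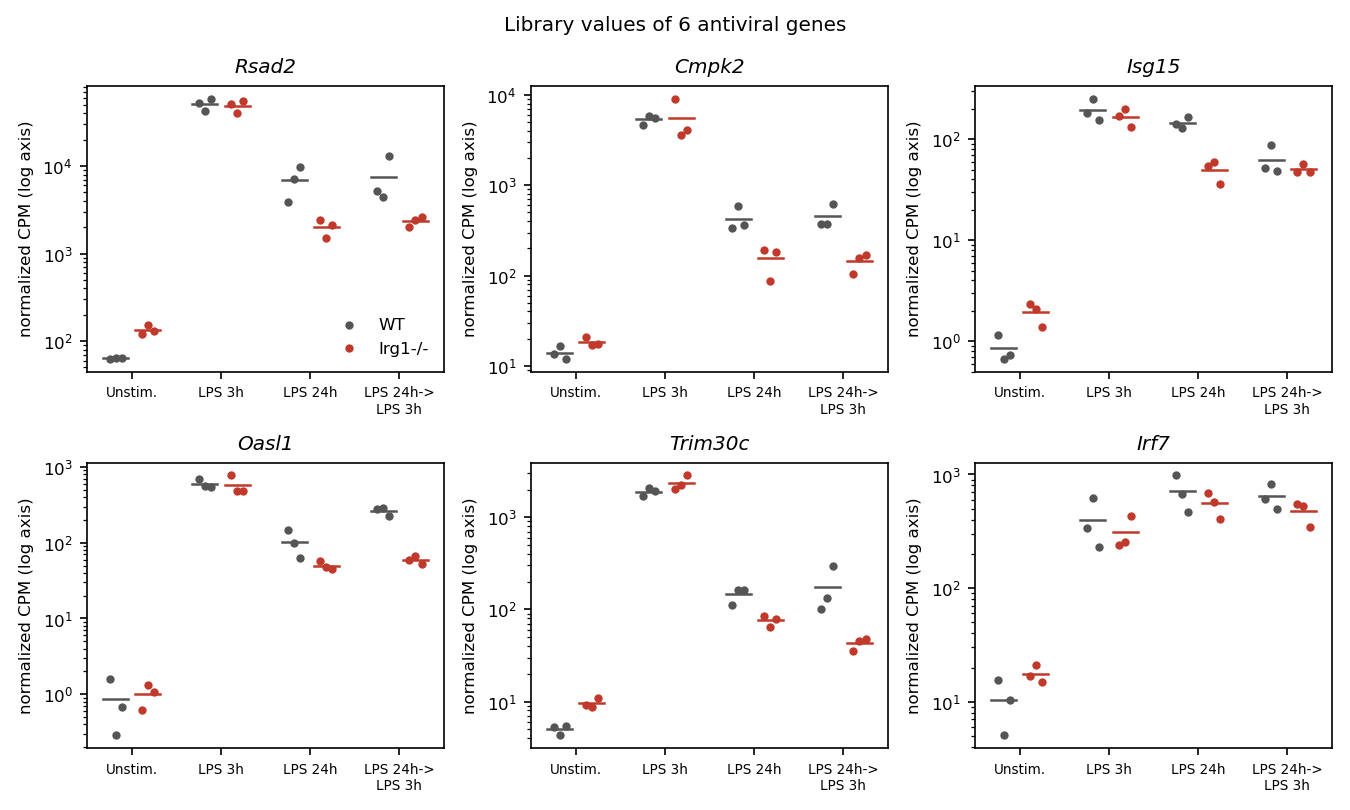
Normalized CPM (log axis) of 6 antiviral genes in every library, by treatment; points are libraries, bars are group means, grey for WT and red for Irg1-/-. In Oasl1 and Trim30c the tolerized Irg1-/- libraries (51.9 to 66.6 and 35.7 to 47.4) lie below all WT libraries, while Irf7 overlaps between genotypes after LPS.

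The genotype difference of *Isg15* did not pass after restimulation. It had 51.9, 88.3 and 48.05 normalized CPM in tolerized WT and 47.7, 56.6 and 46.9 in tolerized *Irg1*-/- cells, a log2 difference of −0.32 (SE 0.29, adjusted p = 0.898). In WT it fell from LPS 24h to LPS 24h->LPS 3h by 1.21 (SE 0.30, adjusted p = 0.0153) on the log2 scale, and in *Irg1*-/- cells it had 53.9, 59.2 and 36.4 before and 47.7, 56.6 and 46.9 after restimulation. The difference between the genotype effects of these 2 treatments did not pass for *Isg15* (1.22, SE 0.42, adjusted p = 0.341). *Oasl1* followed another course. It rose in WT from LPS 24h to LPS 24h->LPS 3h by 1.36 (SE 0.34, adjusted p = 0.0153), from 145, 99.4 and 62.9 to 275, 291 and 222. In *Irg1*-/- cells *Oasl1* went from 56.9, 47.7 and 44.8 to 59.7, 66.6 and 51.9. The difference between its genotype effects was −1.10 (SE 0.47, adjusted p = 0.482). No member passed the test of the genotype difference in LPS 24h->LPS 3h minus that in LPS 24h (0 by edgeR, 0.00842% of all genes, and 0 by DESeq2's Wald test). With edgeR 6 members had an unadjusted p under 0.05, against 8.66% of all genes.

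Set side by side, the genotype difference turned from positive to negative in most members. Taken from Unstim. to LPS 3h, then LPS 24h, then the tolerized cells, the signs were positive, positive, negative, negative in 22 members, positive and then negative 3 times in 10, and positive 3 times then negative in 8. The remaining 10 members had 6 other orders. Shares of these orders over all genes were not computed. The LPS 3h signs come from small differences, with a median of 0.13. With edgeR 2 members had an unadjusted p under 0.05 there, against 5.84% of all genes. Between Unstim. and LPS 24h->LPS 3h, 41 members went from higher to lower in *Irg1*-/- cells and 1 from lower to higher, against 26.8% and 23.4% of all genes. In 7 of the 41 (*Cmpk2*, *Isg20*, *Oas2*, *Oasl2*, *Rsad2*, *Trim30a* and *Trim30c*, named after their values were seen) all *Irg1*-/- libraries lay above all WT libraries before LPS and below all of them in tolerized cells, against 0.404% of all genes. The difference between the 2 genotype effects had a median of −1.19 over the members (−0.04 over all genes), and was negative in 47. These comparisons with Unstim. were added after the signs had been seen, and they share the unstimulated libraries.

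**Figure D3:**
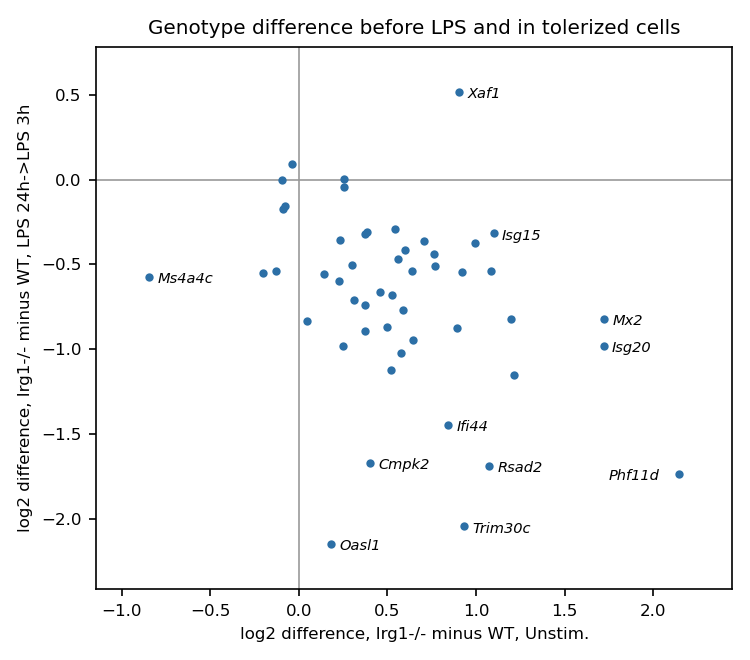
Log2 difference between Irg1-/- and WT in unstimulated cells (x axis) and in LPS 24h->LPS 3h cells (y axis), 1 point per antiviral gene. Of the 50 points, 41 are right of 0 and below 0.

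In this comparison of LPS 24h->LPS 3h with Unstim., 5 members passed, all with a negative difference (0.168% of all genes): *Trim30c* at −2.98 (SE 0.45, adjusted p = 0.000842), *Rsad2* at −2.76 (SE 0.49, adjusted p = 0.00774), *Isg20* at −2.70 (SE 0.55, adjusted p = 0.0207), *Mx2* at −2.54 (SE 0.55, adjusted p = 0.0398) and *Ifi44* at −2.29 (SE 0.47, adjusted p = 0.0207). *Isg20* had 169, 186 and 139 normalized CPM in tolerized WT and 72.6, 81.4 and 96.1 in tolerized *Irg1*-/- cells, which did not overlap. *Mx2* had 106, 68.9 and 131 in WT and 77.1, 46.3 and 49.9 in *Irg1*-/-, which did. *Ifi44*, an interferon-induced cytoplasmic protein gene, had 7.92, 3.72 and 3.41 in WT and 12.3, 4.90 and 9.69 in *Irg1*-/- before LPS and 374, 355 and 591 in WT and 131, 170.5 and 184 in *Irg1*-/- in tolerized cells, so only its tolerized libraries separated. Leaving out 1 culture at a time, 1 to 6 members passed, with the fewest without tolerized *Irg1*-/- replicate 1. For LPS 24h minus Unstim., *Rsad2* (−2.86, SE 0.49, adjusted p = 0.00382) and *Isg15* (−2.64, SE 0.49, adjusted p = 0.0096) passed (0.21% of all genes). Before LPS *Isg15* had 1.16, 0.668 and 0.732 normalized CPM in WT and 2.34, 2.07 and 1.39 in *Irg1*-/-. These *Isg15* values came from few reads, 18, 7 and 15 in WT and 15, 11 and 26 in *Irg1*-/-. For LPS 3h minus Unstim. no member passed (0.00842% of all genes, and 0 members by DESeq2's Wald test). With edgeR 9 members had an unadjusted p under 0.05, against 5.68% of all genes. The calls for *Mx2*, *Isg20* and *Ifi44* were lost in 13, 9 and 10 of 20 alternatives, among them the loss of single unstimulated or tolerized cultures, while those for *Trim30c* and *Isg15* held in all 20 and those for *Rsad2* in 20 (LPS 24h) and 19 (LPS 24h->LPS 3h) of 20.

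Against LPS 3h instead of Unstim., no member passed. The genotype difference in LPS 24h minus that in LPS 3h had a median of −0.41 (0 called by edgeR, 0.0% of all genes, and 0 by DESeq2's Wald test). With edgeR 11 members had an unadjusted p under 0.05, against 6.47% of all genes. The difference in LPS 24h->LPS 3h minus that in LPS 3h was negative in 48 members (49.9% of all genes) with a median of −0.76 (0 called by edgeR, 0.0% of all genes, and 4 by DESeq2's Wald test). With edgeR 14 members had an unadjusted p under 0.05, against 7.23% of all genes. The closest to the threshold was *Trim30c* at −2.36 (SE 0.43, adjusted p = 0.0668). *Trim30c* had 1708, 2057 and 1937 in WT and 2037, 2221 and 2841 in *Irg1*-/- after LPS 3h, and 5.35, 4.30 and 5.46 in WT and 9.20, 8.67 and 10.9 in *Irg1*-/- before LPS. *Phf11b* was the 1 member whose *Irg1*-/- libraries lay above WT in LPS 3h and below WT in tolerized cells, against 0.286% of all genes (tolerized values of 65.7, 72.8 and 40.9 against 21.03, 32.4 and 27.2), and its difference of differences was −2.17 (SE 0.51, adjusted p = 0.14).

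By class, the direction in tolerized cells was the same almost throughout. All 6 OAS family members were lower in *Irg1*-/- (log2 differences −2.15 to −0.42, 1 called), as were all 8 members of the TRIM30, SLFN and PHF11 families (−2.04 to −0.31, 1 called), all 7 nucleic acid sensors (−0.87 to −0.004, 0 called), all 5 PARP and nuclear body genes (−0.95 to −0.29, 0 called), all 3 IFIT genes (−1.02 to −0.54, 0 called) and all 3 transcription factors (−0.54 to −0.32, 0 called). The 3 exceptions with a positive value were *Usp18* in the ISG15 system, *Eif2ak2* among the other antiviral effectors and *Xaf1* among the other induced genes. After LPS 24h the classes differed more. All 6 other induced genes were lower in *Irg1*-/- (median −0.37), while the 6 OAS genes were split into 3 higher and 3 lower (median 0.01). Members of the TRIM30, SLFN, PHF11, OAS and IFI20x families have near-identical copies, and the counting program is not given in the sources used here, so reads could be split among copies and single values of these genes are uncertain.

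**Figure D4:**
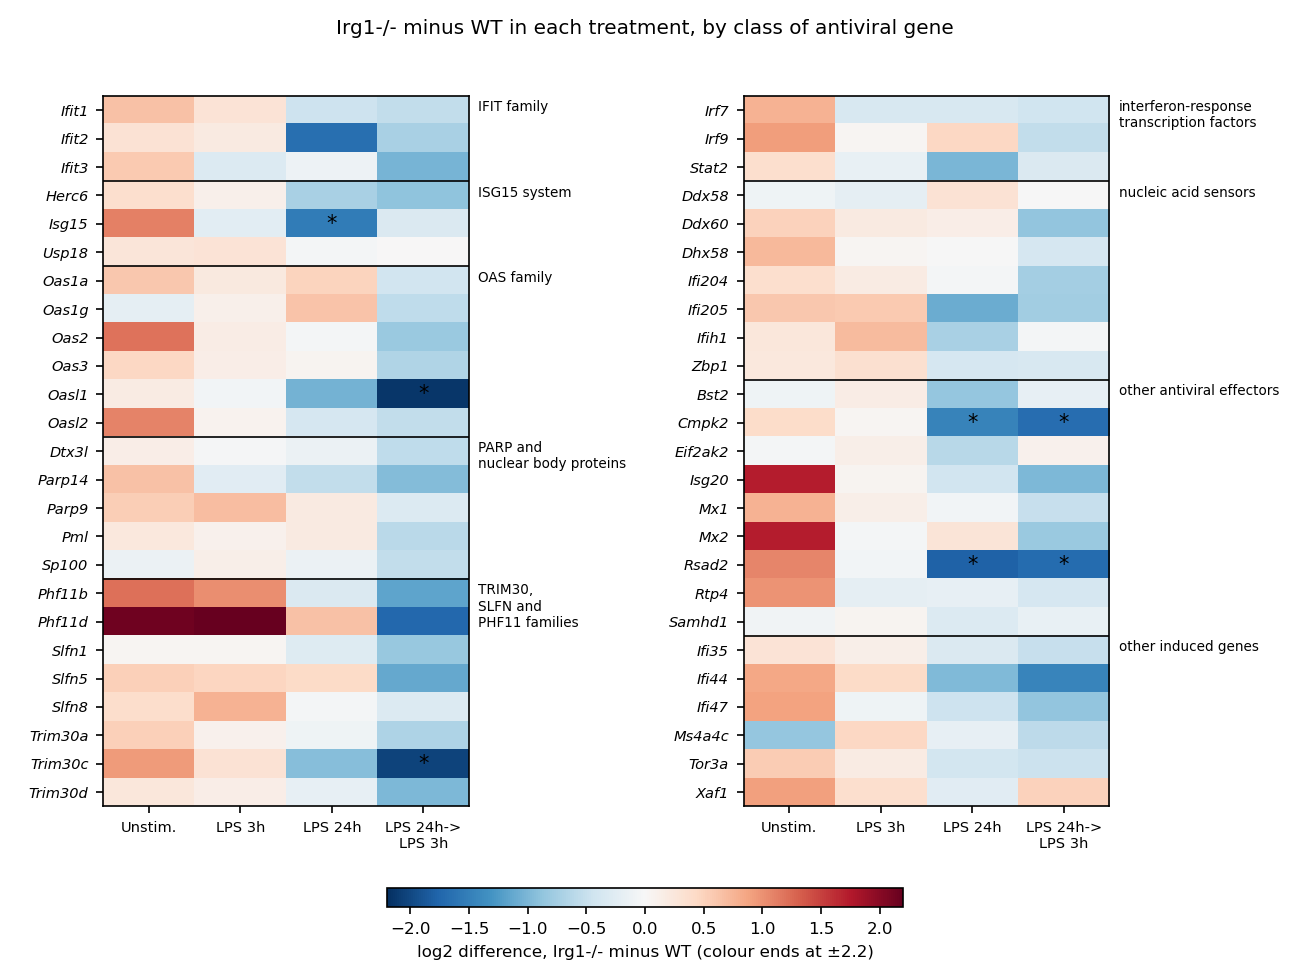
Log2 difference between Irg1-/- and WT for each of the 50 antiviral genes (rows, by class) in the 4 treatments (columns); red is higher and blue lower in Irg1-/-, and an asterisk marks an adjusted p under 0.05. The Unstim. column is mostly red (43 of 50 positive) and the LPS 24h->LPS 3h column mostly blue (47 of 50 negative).

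The OAS enzymes make 2-5A, the activator of RNase L. *Oas1a* had 8.57, 3.82 and 9.36 normalized CPM in WT and 12.9, 9.80 and 10.6 in *Irg1*-/- before LPS, and 98.6, 94.04 and 59.2 in WT and 71.5, 74.5 and 42.4 in *Irg1*-/- in tolerized cells, which overlapped. *Oas2* had 42.8, 44.4 and 36.7 in tolerized WT and 25.6, 22.6 and 21.9 in tolerized *Irg1*-/-, a log2 difference of −0.82 (SE 0.34, adjusted p = 0.508). *Oas3* had 100.3, 104 and 72.1 in WT and 67.5, 54.9 and 51.9 in *Irg1*-/-. In *Oas2* and *Oas3* the *Irg1*-/- libraries were all below WT, although neither passed the test. *Oasl2* had 352, 344 and 396 in WT and 279.9, 235 and 237 in *Irg1*-/-, also without overlap (−0.54, SE 0.26, adjusted p = 0.617). After LPS 24h the WT cultures of *Oas1a* (68.4, 75.97 and 25.8) and *Oas2* (65.6, 52.7 and 18.1) spread widely, with culture 3 lowest, and *Irg1*-/- had 77.6, 96.05 and 65.03 and 51.1, 51.3 and 30.6.

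IFIT proteins bind RNA that lacks the host cap structure. In tolerized cells *Ifit3* had 143, 149 and 164 normalized CPM in WT and 61.99, 58.4 and 105 in *Irg1*-/-, without overlap. *Ifit1* had 1468, 1369 and 2143 in WT and 1475, 881 and 1079 in *Irg1*-/-, and *Ifit2* 428, 574 and 834 in WT and 188, 432 and 502 in *Irg1*-/-. In these 2 genes the ranges overlapped. After LPS 24h *Ifit2* had 833, 2461 and 2738 in WT, with culture 1 far below the others, and 508, 329.9 and 1078 in *Irg1*-/-, whereas *Ifit1* had 1120, 2220 and 1043 in WT and 1486, 593 and 1114 in *Irg1*-/-. *Usp18*, which removes ISG15 from proteins and dampens IFNAR signalling, had 173, 239.5 and 123 in WT and 214, 152 and 153 in *Irg1*-/- after LPS 24h, and 180.2, 120.5 and 98.7 in WT and 138, 144 and 118 in *Irg1*-/- in tolerized cells. Its genotype ranges overlapped in both treatments.

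Among the nucleic acid sensors, *Zbp1*, which senses Z-form nucleic acid, had 147, 161 and 121 normalized CPM in tolerized WT and 115, 109.9 and 109 in tolerized *Irg1*-/- cells, just without overlap. *Ddx58*, the gene of RIG-I, had 187, 124 and 295 in WT and 221, 201 and 183 in *Irg1*-/-, and *Ifih1* 369.5, 153 and 259 in WT and 249.8, 256 and 251 in *Irg1*-/-, both overlapping. *Dhx58*, the gene of the regulator LGP2, had 7.41, 7.64 and 6.68 in WT and 10.1, 14.9 and 10.7 in *Irg1*-/- before LPS, where *Irg1*-/- was higher in all libraries, and 79.5, 85.3 and 57.6 in WT and 67.2, 59.2 and 46.6 in *Irg1*-/- in tolerized cells, where the ranges overlapped. Of the effectors, *Mx1*, which carries a disabling deletion in most laboratory mouse strains, had 277, 209.6 and 260.4 in WT and 112, 189 and 224 in *Irg1*-/- in tolerized cells. *Eif2ak2*, the gene of the kinase PKR, had 161, 140.1 and 251 in WT and 151, 145 and 292 in *Irg1*-/-, and *Samhd1*, a dNTP hydrolase gene, 653, 467 and 496 in WT and 372, 418 and 659 in *Irg1*-/-. The ranges of *Mx1*, *Eif2ak2* and *Samhd1* overlapped between genotypes.

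Tolerance of the members was measured against the first dose. In WT cells, 32 members were lower in LPS 24h->LPS 3h than in LPS 3h (13.1% of all genes fell) and 2 were higher (background 12.4%), with a median log2 fold change of −1.50. In *Irg1*-/- cells 40 were lower (background 14.1%) and 2 higher (background 13.1%), with a median of −2.25. Expressed as group means, a member in tolerized cells had a median of 35.4% of its LPS 3h level in WT and 21.1% in *Irg1*-/-, and the percentage was lower in *Irg1*-/- for 48 members. No share over all genes was computed for this percentage. The contrast between genotypes is that of LPS 24h->LPS 3h minus LPS 3h given above, in which edgeR called 0 members and DESeq2's Wald test 4. *Trim30c* kept 9.26% in WT and 1.8% in *Irg1*-/-, *Cmpk2* 8.45% and 2.57%, and *Oasl1* 43.9% and 10.3%. The group mean was above the LPS 3h mean for 6 members in WT (*Bst2*, *Ms4a4c*, *Ifi44*, *Irf7*, *Phf11d* and *Oas1a*) and for 3 in *Irg1*-/- (*Bst2*, *Ms4a4c* and *Irf7*), and *Bst2* and *Ms4a4c* were those past the threshold. *Bst2* had 35, 22.1 and 29.1 normalized CPM after LPS 3h and 83.3, 180.1 and 68.8 in tolerized WT cells (1.95, SE 0.34, adjusted p = 6.78e-05), and 43.2, 29.7 and 23.2 and 109, 94.7 and 91.3 in *Irg1*-/- (1.61, SE 0.34, adjusted p = 0.000498). *Ms4a4c* rose from 71.5, 48.6 and 41.1 to 265, 330 and 300.5 in WT (2.48, SE 0.52, adjusted p = 0.000596) and from 94.95, 44.5 and 81.4 to 224, 216 and 163 in *Irg1*-/- (1.45, SE 0.50, adjusted p = 0.0303). In *Irg1*-/- the *Ms4a4c* call was lost in 7 of 14 alternatives and the *Bst2* call in 2, and DESeq2's Wald test called 1 higher member there. The highest group mean was at LPS 3h for 42 members in WT and 46 in *Irg1*-/-. These sizes move with the scaling. Without a composition factor the median over all genes shifts by 0.46 in WT and 0.53 in *Irg1*-/-, and the members' medians become −1.04 and −1.72. With the pool as a term these medians were −1.49 and −2.15. Calls over all genes then went from 3028 to 3162 in WT and from 3233 to 1407 in *Irg1*-/-.

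**Figure D5:**
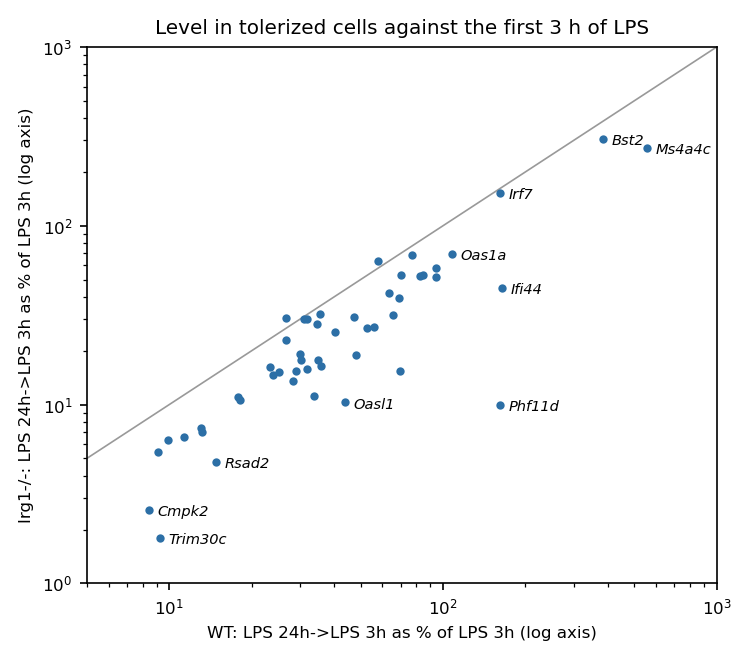
Mean level in LPS 24h->LPS 3h cells as a percent of the mean level in LPS 3h cells, for WT (x axis) and Irg1-/- (y axis), 1 point per antiviral gene on log axes; the line marks equal percentages. Of the 50 points, 48 lie below the line.

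From LPS 24h to LPS 24h->LPS 3h few members passed the threshold. The tolerized cultures also had fresh medium for 1 h and were kept longer. No group had this without the second LPS, so the second dose and the medium change cannot be told apart. In WT cells 2 rose (background 2.46%) and 4 fell (background 1.53%), with a median of −0.01. The log2 fold change was negative in 26 of 50 members in WT (52.1% of all genes). With edgeR 7 negative and 3 positive members had an unadjusted p under 0.05 there, against 16.56% of all genes in either direction. *Ifi205* rose by 2.06 (SE 0.41, adjusted p = 0.00208) and *Oasl1* as given above, while *Stat2* (−1.68, SE 0.38, adjusted p = 0.00772), *Ifit2* (−1.72, SE 0.44, adjusted p = 0.0209), *Isg15* and *Pml*, the organiser of nuclear bodies (−1.05, SE 0.30, adjusted p = 0.0378), fell. In *Irg1*-/- cells 1 rose (background 3.44%) and 5 fell (background 1.7%), with a median of −0.44. More members leaned downward without passing. The log2 fold change was negative in 39 of 50 (54.6% of all genes). With edgeR 19 negative members and 1 positive member had an unadjusted p under 0.05, against 15.82% of all genes in either direction. *Ifi205* rose again (2.38, SE 0.42, adjusted p = 0.000281), and *Pml* (−1.85, SE 0.30, adjusted p = 0.000109), *Ifit3* (−1.45, SE 0.40, adjusted p = 0.0252), *Ifi47*, an immunity-related GTPase gene (−1.27, SE 0.30, adjusted p = 0.00849), *Phf11b* (−1.34, SE 0.36, adjusted p = 0.0224) and *Mx1* (−1.09, SE 0.33, adjusted p = 0.0494) fell. The comparisons of tolerized cells with LPS 24h and with LPS 3h share the tolerized libraries. These calls were lost in 9 of 14 alternatives for *Mx1*, 5 for *Phf11b*, 4 for *Ifit3*, 2 for *Ifi47* and 0 for *Pml* and *Ifi205* in *Irg1*-/-, and the log2 fold change was −0.52 for *Mx1* without *Irg1*-/- LPS 24h replicate 3 and −0.78 for *Ifit3* without *Irg1*-/- LPS 24h replicate 1. In WT they were lost in 5 for *Ifit2* and *Pml*, 4 for *Isg15*, 3 for *Stat2* and *Oasl1* and 1 for *Ifi205*. Without a composition factor, 1 rose and 14 fell in *Irg1*-/-, where the median over all genes shifted by −0.20 and 653 genes were called (611 with the factor). When the fit held no other groups none passed in WT, with 109 genes called (474 with all groups).

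Few genes upstream of the members passed in a genotype comparison. Of 27 genes of the interferon pathway (ligands, receptors and kinases, inhibitors, TLR4 and RNA or DNA sensing adaptors, other IRFs), 23 were tested, and 1 passed in a genotype comparison. Over all 11878 genes tested, 5 passed in Unstim., 1 in LPS 3h, 71 in LPS 24h and 14 in LPS 24h->LPS 3h, so few calls say little of this list. *Irf1*, an interferon-induced factor that also binds ISREs, had 116, 173 and 265 normalized CPM in WT and 93.8, 76 and 62.8 in *Irg1*-/- after LPS 24h, without overlap, and a log2 difference of −1.25 (SE 0.29, adjusted p = 0.0314). That call was lost in 9 of 14 alternatives. The lowest WT library, at 116, was the only WT library in pool 1, which held all *Irg1*-/- libraries of this treatment. *Ifnb1*, the ligand, had no read in any unstimulated library and 5.83, 31.9 and 19.6 in WT and 20.5, 10 and 8.97 in *Irg1*-/- after LPS 3h. After LPS 24h it had 0.243, 0.536 and 2.10 in WT and 0.271, 0 and 0 in *Irg1*-/-, and in tolerized cells 0.231, 2.14 and 3.39 in WT and 1.61, 0.217 and 0.228 in *Irg1*-/-, from at most 42 reads per library, so no genotype difference was detectable at this depth. The 4 listed *Ifna* genes had no read in any library. In tolerized cells the receptor genes had 318, 285 and 354 in WT and 339, 370.1 and 579 in *Irg1*-/- for *Ifnar1* and 365, 250 and 289 in WT and 411, 371 and 497 in *Irg1*-/- for *Ifnar2*, whose *Irg1*-/- libraries were all higher. Neither receptor gene passed in any genotype comparison.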

How the data were processed

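The authors deposited 1 table of raw counts of reads per gene for 24 libraries, made from 3' end, oligo-dT primed, barcoded pools. The primer is described with a barcode and no molecular identifier. How PCR copies were handled is not stated in the sources used here, so they may have been counted as reads. Per the submitters' processing notes, STAR and mm10 were used. The counting program, annotation and strand setting are not given in the sources used here. The 5 summary lines of the table, 40.6 to 52.0% of a library's column, entered neither the library sizes nor the tests. Groups were taken from the labels.

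Counts were fitted with edgeR 4.0.16 (limma 3.58.1, R 4.3.3): filterByExpr (minimum count 10, minimum total count 15), TMM factors, 1 mean per group over all 8 groups, the quasi-likelihood F-test, and Benjamini-Hochberg adjustment over 11878 genes (threshold 0.05). Standard errors were derived from the log2 fold change and F. Levels are TMM-normalized CPM. The scripts were tested on simulated data. Alternatives were DESeq2 1.42.0 size factors and its Wald test, no composition factor, no filter, a replicate block, the pool as a term, only the groups compared, and leaving out each culture.

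The members and lists were chosen with earlier results of these data known. Values per library were given for 26 members fixed by role, and for up to 3 members with the highest and 3 with the lowest change among those called in each genotype comparison. Other members were named after their values were seen. The comparisons of genotype differences with Unstim., the counts without overlap and the fit with block and pool together were added after the data were seen. One gene of the interferon pathway list is not reported here.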

Additional observations from a re-analysis of the deposited data

Results flagged for a closer look

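The genotype effect differed between LPS 24h and Unstim. by a log2 value of −2.86 for *Rsad2* and −2.64 for *Isg15*, by a test of the difference itself. Between LPS 24h->LPS 3h and Unstim. it differed by −2.98 for *Trim30c*, −2.76 for *Rsad2*, −2.70 for *Isg20*, −2.54 for *Mx2* and −2.29 for *Ifi44*. The unstimulated libraries had only 7 to 26 reads each on *Isg15* and 7 to 54 on *Mx2*. They had 29 to 91 on *Isg20*, 26 to 181 on *Ifi44* and 45 to 204 on *Trim30c*. Unstimulated *Irg1*-/- replicates 1 and 2 held 4707752 and 3927378 gene reads, against a median of 11539056 over all libraries. All 6 unstimulated libraries were in pool 4 and most LPS-treated libraries were in other pools, and the part of the pool in these differences was tested only by the fits that hold it as a term.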

How the results depend on the processing

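With no filter on low counts, 3 members were called between genotypes in Unstim., 1 in LPS 3h, and, for differences between genotype effects, 1 in LPS 24h minus LPS 3h, 5 in LPS 24h->LPS 3h minus LPS 3h, 1 in LPS 24h->LPS 3h minus LPS 24h, 7 in LPS 24h minus Unstim. and 10 in LPS 24h->LPS 3h minus Unstim. Over all genes the calls in these 7 comparisons went from 5, 1, 0, 0, 1, 25 and 20 to 39, 32, 78, 68, 170, 112 and 90. DESeq2's Wald test called 3 in Unstim., 5 in LPS 24h, 4 in LPS 24h->LPS 3h minus LPS 3h, and 7 and 12 in the 2 comparisons with Unstim., where it called 29, 168, 34, 83 and 75 of all genes against 5, 71, 0, 25 and 20. With the pool as a term, 0 were called in LPS 24h and 2 in LPS 24h->LPS 3h (12 and 6 of all genes against 71 and 14). With only the groups compared in the fit, 0 were called in LPS 24h, 1 in LPS 24h->LPS 3h and 2 in LPS 24h->LPS 3h minus Unstim. (3, 4 and 12 of all genes against 71, 14 and 20). From LPS 24h to LPS 24h->LPS 3h that fit called 0 in WT and 10 in *Irg1*-/- (109 and 1080 of all genes against 474 and 611). Without a composition factor the last count was 15 (653 of all genes), and 1 was called in LPS 24h->LPS 3h minus LPS 3h (2 of all genes against 0). The cause was not tested.

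Replicate numbers are not stated to pair the samples. Deviations from the group mean were correlated between WT and *Irg1*-/- libraries of the same treatment and number. Over 12 pairs the correlations ran from −0.108 to 0.368 and 5 were over 0.1. Pairing of cultures of 1 genotype across treatments was not tested. A replicate block gave 1 call in LPS 24h->LPS 3h minus LPS 3h (1 of all genes). With block and pool together, 0 members were called in LPS 24h, 2 in LPS 24h->LPS 3h and 2 in LPS 24h->LPS 3h minus Unstim. (12, 5 and 14 of all genes).

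Leaving out 1 culture gave 0 to 4 calls in LPS 24h, 2 to 4 in LPS 24h->LPS 3h, 0 to 1 in LPS 24h->LPS 3h minus LPS 3h, 1 to 6 in LPS 24h->LPS 3h minus Unstim., and, from LPS 24h to LPS 24h->LPS 3h, 2 to 7 in WT and 2 to 5 in *Irg1*-/-. The *Isg15* genotype difference in LPS 24h->LPS 3h ranged from −0.437 without WT replicate 3 to 0.021, a turned sign, without WT replicate 2. *Irf9* in *Irg1*-/- turned to −0.052 for LPS 3h minus Unstim. without a composition factor, and to −0.432, −0.07 and −0.1 for LPS 24h minus Unstim. without LPS 24h replicate 1, Unstim. replicate 1 and Unstim. replicate 2, and was 1.708 without Unstim. replicate 3. Of 1366 values of named genes under alternatives, 1190 kept their direction and side of the threshold. These include *Acod1*, large LPS effects and differences that were never called, so they do not measure how calls between genotypes held. Calls between genotypes were lost in 0 (*Oasl1*) to 9 (*Cmpk2*) of 14 alternatives. Calls for differences from Unstim. were lost in 0 (*Trim30c*) to 13 (*Mx2*) of 20.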
